A study of Rattus norvegicus with 6 samples.

Results

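Mitochondrial ribosomal proteins were measured as messenger RNA in the renal cortex of rats given N,N'-dinitrosopentamethylenetetramine (DNPT), an N-nitroso compound, or corn oil. The members are the genes whose symbol begins with Mrpl or Mrps and a digit, as named through the RefSeq accession of each probe. They numbered 67 genes of 15645 named genes on the array, with 114 of its 61537 probes that are not controls. Of the 67, 42 were Mrpl genes, which code for proteins of the large subunit, and 25 were Mrps genes, which by symbol belong to the small subunit. The vehicle group held 3 male Sprague-Dawley rats dosed with corn oil for 4 weeks, and the DNPT group held 3 male rats of the same strain dosed with DNPT at 200 mg/kg/day for 4 weeks; all were 5 weeks old at purchase. The labels name no genetic change in either group and give 1 dose, and each rat was hybridised to 1 array in 1 colour. All changes below are DNPT minus vehicle on a log2 scale of the processed signal relative to the 75th percentile of its array. They are over n = 3 rats per group, with standard errors (SE) and adjusted p-values from limma over all 34915 features tested. These features are 12687 named genes and, each counted on its own, the tested probes without a gene name.

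Mitochondria translate a small set of respiratory chain and ATP synthase subunits from their own genome, and they do so on ribosomes whose RNA is encoded there but whose proteins are all encoded in the nucleus, made in the cytosol and imported. The large subunit holds the peptidyl transferase centre, the exit tunnel and the stalk that receives translation factors, and the small subunit reads the codons. Some of these proteins descend from bacterial ribosomal proteins and others are found in mitochondria only. The renal cortex consists largely of proximal tubules, which are rich in mitochondria and draw on oxidative metabolism for reabsorption.

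The labelled tissue was checked by its markers. All 7 proximal tubule markers were tested, with a mean signal of 6.50 to 6.54 in vehicle rats and 6.61 to 6.65 in DNPT rats. Slc5a2 had by far the largest change of these markers, 0.42 (SE 0.11), while the others ran from -0.044 (Aqp1) to 0.14 (Cubn). Probes well above background numbered 44853, 45167 and 44730 in vehicle arrays and 42985, 43402 and 42116 in DNPT arrays. The 75th percentile of the processed signal was 1247, 1329 and 1164 in vehicle and 1112, 953 and 996 in DNPT arrays. Outlier values numbered 6, 2 and 2 against 14, 50 and 39. None of these ranges overlapped between the groups, and their part in the changes was not tested. Precision is limited by the 3 arrays per group. Slide 1, scanned on day 1, carried all vehicle arrays and that of DNPT replicate 1, whereas slide 2, scanned on day 2, carried the other DNPT arrays and no vehicle array.

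As a group the mitochondrial ribosomal protein genes lay slightly higher in DNPT rats, and no single member passed the test. Of the 67 genes, 58 had a positive change and 9 a negative one, where 51.9% of all features and 57.0% of named genes had a positive change. The median change was 0.11, a 1.08-fold difference, against 0.011 over all features and 0.036 over named genes. The test in limma with Benjamini-Hochberg adjustment called 0 members higher and 0 lower, as it called 0% of all features, and the smallest adjusted p of a member was 0.383. Without DNPT replicate 1, 623 of the 34915 features passed that test, and 0 of them were members. In that fit all vehicle arrays lay on slide 1 and the DNPT arrays on slide 2, so group and slide cannot be told apart. With all 6 samples, 6 members lay on the higher side at an unadjusted p under 0.05 (Mrps18c, Mrps9, Mrpl53, Mrps30, Mrpl2 and Mrpl12) and 0 on the lower side. Over all features, 5.95% lay on the higher and 6.16% on the lower side at that p (7.15% of named genes on the higher). Leaving out vehicle replicates 1, 2 and 3 in turn gave counts of 1, 0 and 4 on the higher side, and leaving out DNPT replicates 1, 2 and 3 gave 11, 1 and 0. The shares of all features on the higher side in these fits were 3.67%, 3.32% and 5.04%, and 8.25%, 3.75% and 4.26%. Every DNPT rat exceeded every vehicle rat in 25 members, 37.3% of them against 11.9% of all features and 14.8% of named genes. Every DNPT rat lay below every vehicle rat in 0 members, against 8.32% of all features. The 95% interval lay within 0.5 of zero in both directions for 56 of the 67 genes and reached beyond it for the others.

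Each DNPT rat showed the shift, to a different extent. The median deviation from the vehicle mean of the same gene over the 67 genes was 0.097, 0.11 and 0.18 for DNPT replicates 1, 2 and 3. In the vehicle rats it was -0.034, 0.0092 and 0.032, so the groups did not overlap in this median, and DNPT replicate 3 stood highest. DNPT replicate 1, the only DNPT sample on slide 1, exceeded all 3 vehicle rats in 35 of 67 members, against 30.7% of all features. Replicate 2 did so in 40 members and replicate 3 in 48, where the shares of all features were 34.8% and 33.8%. On slide 1 alone the median change of the members was 0.097, with 52 of 67 changes positive and 0 members at an unadjusted p under 0.05 on the higher side, against 3.397% of all features in that fit.

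**Figure D1:**
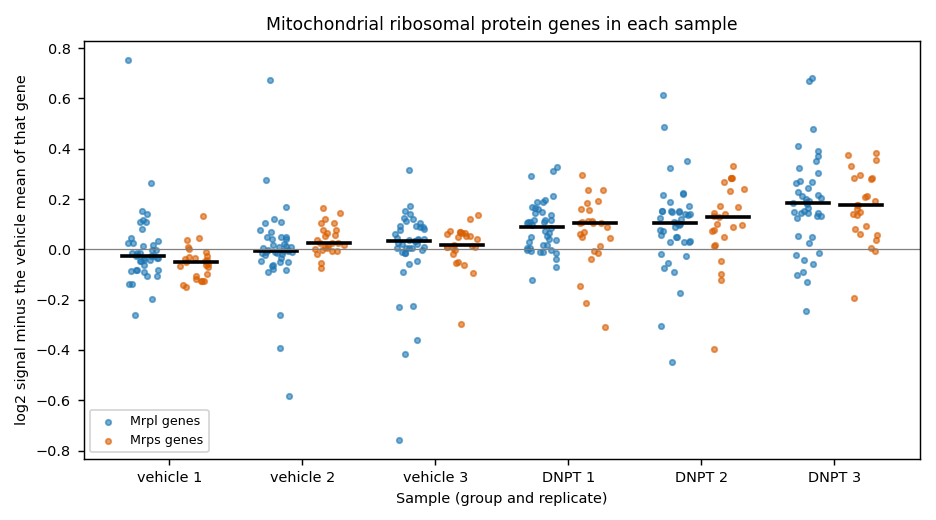
Log2 signal of each of the 67 genes minus its mean in vehicle rats (y axis) in each of the 6 samples (x axis), with Mrpl genes in blue, Mrps genes in orange and black lines at the medians of each set. Both medians lie above zero in all 3 DNPT samples, and single genes scatter to both sides of them.

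The shift moved with the brightness of the probes. When all features were divided into 4 equal bands by mean signal, the median change went from -0.094 in the dimmest band through -0.031 and 0.015 to 0.081 in the brightest. Of the 67 members, 58 belonged to the brightest band and 9 to the one below it. The 58 bright members had a median change of 0.13, with 51 positive changes, where 69.8% of all features of that band had a positive change. The groups were separated, with DNPT higher, in 24 of the 58, against 22.9% of the band's features, and 6 reached an unadjusted p under 0.05 on the higher side, against 9.28%. Quantile normalization, which gives all arrays the same distribution of signals, lowered the members' median change to 0.059, with 54 positive changes and 12 members without overlap, and normexp background correction followed by quantile normalization gave 0.051, 48 and 12, while 9.74% and 10.2% of all features were without overlap in these settings. The part of signal strength in the shift of single members was not tested.

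**Figure D2:**
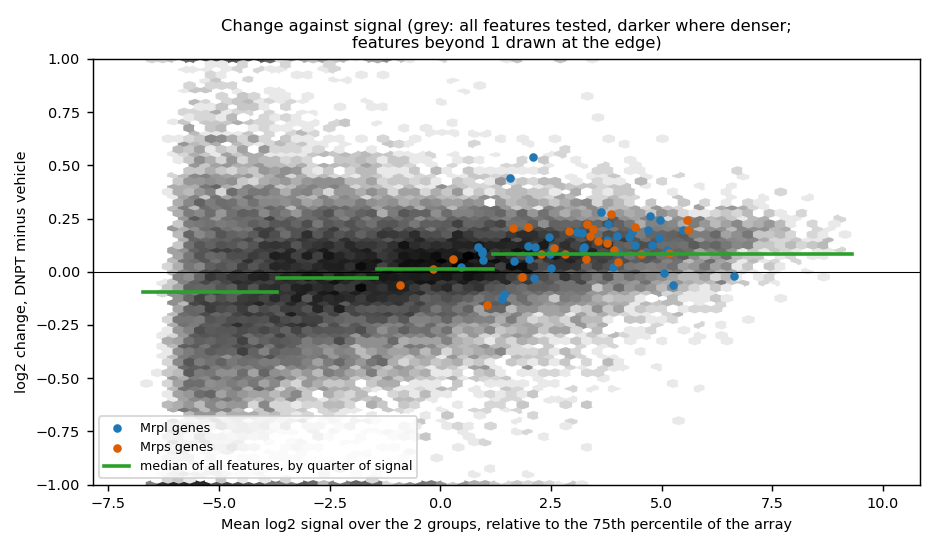
Log2 change, DNPT minus vehicle (y axis), against mean log2 signal relative to the 75th percentile of the array (x axis) for all 34915 features (grey, darker where denser) and the 67 members (Mrpl blue, Mrps orange), with green lines at the median of all features in each of 4 bands of signal. The medians climb from -0.094 to 0.081, and 58 members lie in the brightest band.

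The large and the small subunit gave nearly the same medians, and no test was made between them. The 42 Mrpl genes had a median change of 0.12 with 36 positive, and the 25 Mrps genes 0.11 with 22 positive. DNPT values exceeded the vehicle values without overlap in 16 Mrpl genes (38.1%) and 9 Mrps genes (36.0%). In each set 3 members reached an unadjusted p under 0.05, all on the higher side. Over all features the shares were 11.9% without overlap and 5.95% at that p on the higher side. In the brightest band they were 22.9% and 9.28%. Within samples the Mrpl median minus the Mrps median ran from -0.021 to 0.0070 in DNPT rats and from -0.030 to 0.024 in vehicle rats, so the 2 groups of rats overlapped. Despite their symbols, as the unified nomenclature has it, Mrps18a and Mrps30 sit in the large subunit of the assembled ribosome. Counted there, the large subunit had a median change of 0.12 over 44 genes and the small subunit 0.10 over 23.

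Members of the bacterial and the mitochondrial name class had similar medians. By the unified names of ribosomal proteins, 38 genes carry a name shared with bacteria and 29 a name reserved for mitochondria. The 38 had a median change of 0.12 with 32 positive, and the 29 had 0.11 with 26 positive. These classes follow names and not descent, as Mrps18a and Mrps18b, relatives of bacterial protein S18, are among the 29. The 13 small subunit genes with a bacterial name had a median of 0.13 with 7 higher without overlap (53.8%). The 10 with a mitochondrial name, Mrps18b among them, had 0.085 with 1 (10%). Over all features, 11.9% were higher without overlap, and in the brightest band 22.9%. In the large subunit the corresponding medians were 0.12 over 25 genes and 0.12 over 19, with 9 (36%) and 8 (42.1%) higher without overlap. These are descriptions, since the genes of 1 array set are not replicates.

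**Figure D3:**
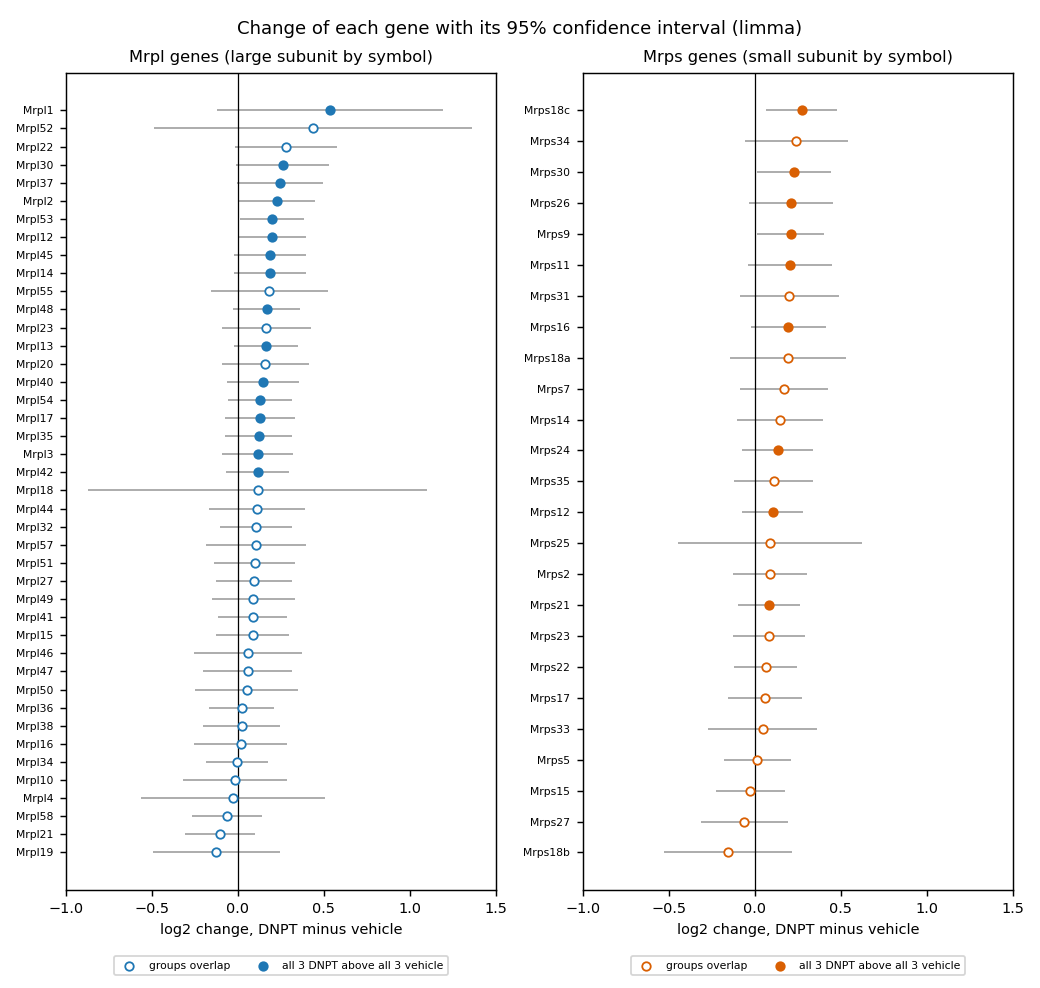
Log2 change, DNPT minus vehicle (x axis), of each Mrpl gene (left) and each Mrps gene (right), with bars for the 95% confidence interval from limma; filled points mark the 25 genes in which the lowest DNPT value exceeds the highest vehicle value. Changes run from -0.16 for Mrps18b to 0.54 for Mrpl1, and most intervals include zero.

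The stalk and the core of the large subunit held members on both sides of zero. Mrpl12, the stalk protein that recruits translation factors and also binds the mitochondrial RNA polymerase, had signals of 5.36, 5.38 and 5.38 in the vehicle rats and 5.49, 5.59 and 5.64 in the DNPT rats. Its groups did not overlap, and its change was 0.20 (SE 0.079, adjusted p = 0.411); with normexp correction and quantile normalization the change was -0.0046. Mrpl10, which anchors the stalk to the ribosome, had 6.81, 6.72 and 6.43 in vehicle and 6.66, 6.69 and 6.56 in DNPT rats. Those ranges overlapped, and the change was -0.018 (SE 0.12, adjusted p = 0.959). Mrpl2, a core protein near the peptidyl transferase centre, was at 3.64, 3.69 and 3.70 in vehicle rats and 3.81, 3.86 and 4.03 in DNPT rats, with a change of 0.23 (SE 0.090, adjusted p = 0.41). All 3 DNPT rats lay above the vehicle rats for Mrpl2 on this probe, and a second probe gave 0.20 (SE 0.094), while the dimmest of its 3 probes gave -0.0081 (SE 0.16).

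Among large subunit proteins found only in mitochondria, Mrpl53 had the smallest p. Its signals were 4.60, 4.54 and 4.63 in vehicle rats and 4.75, 4.81 and 4.80 in DNPT rats, with a change of 0.20 (SE 0.075, 95% interval 0.012 to 0.38, adjusted p = 0.405). No DNPT value overlapped the vehicle values, and over the 18 alternatives the change ran from 0.11 to 0.22. Mrpl37 was at 4.73, 4.94 and 4.83 against 5.04, 4.99 and 5.20, a change of 0.24 (SE 0.10, adjusted p = 0.418), also without overlap. Mrps30, a relative of Mrpl37 that lies in the large subunit, was at 3.17, 3.21 and 3.25 in vehicle rats and 3.32, 3.50 and 3.50 in DNPT rats. Both of its probes gave this order, with changes of 0.23 (SE 0.086) and 0.25 (SE 0.093), and the DNPT replicates of slide 2 were the highest on both; the adjusted p was 0.408. Mrpl45, which lies at the tunnel exit and ties the ribosome to the inner membrane, was at 3.01, 2.92 and 3.06 in vehicle and 3.14, 3.15 and 3.26 in DNPT rats, with a change of 0.19 (SE 0.085, adjusted p = 0.431). Mrpl44, a protein with a fold like that of RNase III, had 2.39, 2.47 and 2.56 in vehicle and 2.47, 2.50 and 2.78 in DNPT rats. Its groups overlapped, and the change was 0.11 (SE 0.11). Mrpl58, a peptidyl-tRNA hydrolase that rescues stalled ribosomes and is also a part of the large subunit, was at 5.23 ± 0.047 after DNPT and 5.29 ± 0.077 after corn oil (SD, n = 3). Its change was -0.062 (SE 0.082), and its second probe gave 0.088 (SE 0.11).

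On the lower side of the large subunit, the changes were small and the groups overlapped. Mrpl21, a protein with a bacterial counterpart, had 1.46, 1.47 and 1.54 in vehicle rats and 1.48, 1.32 and 1.36 in DNPT rats, with a change of -0.11 (SE 0.083, adjusted p = 0.595). Only DNPT replicate 1 reached the vehicle range. Mrpl19 had a change of -0.13 (SE 0.15, adjusted p = 0.732), with vehicle replicate 2 close to DNPT replicate 2 (1.20 and 1.16).

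In the small subunit the smallest p of all 67 members belonged to Mrps18c, 1 of 3 rat genes related to bacterial protein S18. Its signals were 3.76, 3.66 and 3.72 in vehicle rats and 3.91, 3.98 and 4.07 in DNPT rats. The groups did not overlap, and the change was 0.27 (SE 0.084, 95% interval 0.066 to 0.48, adjusted p = 0.383); it ran from 0.067 (normexp and quantile normalization) to 0.31 (without DNPT replicate 1) over the 18 alternatives. Its relatives differed from it in their values. Mrps18a, the relative placed in the large subunit, was at 2.76, 2.95 and 2.72 in vehicle and 2.77, 3.05 and 3.18 in DNPT rats, with overlapping groups and a change of 0.19 (SE 0.14, adjusted p = 0.564). Within slide 1 that change was -0.040. Mrps18b was at 1.07, 1.13 and 1.18 in vehicle rats and 0.91, 0.73 and 1.26 in DNPT rats, and its change, -0.16 (SE 0.15, adjusted p = 0.663), was the lowest of all members. DNPT replicate 3 exceeded all vehicle rats while replicates 1 and 2 lay below them, and without replicate 3 the change of Mrps18b was -0.30, the single member at an unadjusted p under 0.05 on the lower side in that fit. Differences between the 3 relatives in their response were not tested.

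Other small subunit proteins of the decoding region and body, given next, had changes from -0.061 (Mrps27) to 0.24 (Mrps34). Mrps9, whose bacterial counterpart reaches toward the transfer RNA in the peptidyl site, was at 1.88, 1.79 and 1.93 in vehicle rats and 2.05, 2.10 and 2.08 in DNPT rats, with a change of 0.21 (SE 0.079, adjusted p = 0.402). The DNPT rats were close to each other and all above the vehicle rats. Mrps12, the protein of the decoding centre, had 3.87, 3.88 and 3.90 against 3.96, 3.99 and 4.02, again without overlap but with a change of only 0.10 (SE 0.072, adjusted p = 0.555). Mrps16, needed for assembly of the small subunit, was at 5.39, 5.61 and 5.50 in vehicle and 5.73, 5.67 and 5.68 in DNPT rats, with a change of 0.19 (SE 0.088, adjusted p = 0.43). Mrps34, a mitochondria-specific protein that stabilises the small subunit, was at 5.42, 5.49 and 5.46 in vehicle rats and 5.47, 5.79 and 5.84 in DNPT rats. Only the replicates of slide 2 exceeded the vehicle rats, and the change of Mrps34, 0.24 (SE 0.12, adjusted p = 0.452), was 0.012 within slide 1. Mrps35, a mitochondria-specific protein, had 2.38, 2.60 and 2.59 in vehicle and 2.63, 2.60 and 2.68 in DNPT rats, with overlap and a change of 0.11 (SE 0.094). The remaining negative members of the small subunit were Mrps27, an RNA-binding protein, at -0.061 (SE 0.10) and Mrps15 at -0.026 (SE 0.082). For Mrps27 the dimmest of 3 probes gave 0.93 (SE 0.49), with a DNPT replicate 2 value of -0.89 where the other 5 rats lay between -3.08 and -2.55.

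The rest of the conserved core is given by role, with members chosen after their values were seen. Mrpl3, whose bacterial counterpart reaches into the peptidyl transferase centre, had 0.81, 0.77 and 0.77 in vehicle and 0.89, 0.81 and 1.00 in DNPT rats, a change of 0.12 (SE 0.084) with no overlap. Mrpl16, near the binding site of the incoming transfer RNA, had 2.35, 2.47 and 2.64 and 2.60, 2.40 and 2.51 in the same order of groups. Its ranges overlapped, and its change was 0.016 (SE 0.11). Around the exit tunnel, Mrpl22 had 3.60, 3.44 and 3.43 in vehicle and 3.56, 3.84 and 3.90 in DNPT rats, and Mrpl23 had 2.38, 2.43 and 2.33 and 2.40, 2.53 and 2.71. In both, DNPT replicates 2 and 3 exceeded the vehicle rats while replicate 1 lay within their range, and the changes were 0.28 (SE 0.12) and 0.17 (SE 0.10). Mrpl4, another protein that lines the tunnel in bacteria, had 2.28, 2.42 and 1.73 in vehicle and 2.33, 2.11 and 1.90 in DNPT rats, with vehicle replicate 3 lowest and a change of -0.029 (SE 0.22). Mrpl13, Mrpl14 and Mrpl30, conserved proteins of the large subunit, all had DNPT values above the vehicle values without overlap. Mrpl13 had 4.16, 4.18 and 4.18 against 4.29, 4.33 and 4.40, with a change of 0.16 (SE 0.075). Mrpl30, at 4.58, 4.60 and 4.64 against 4.67, 4.93 and 4.998, had the smallest adjusted p of any member in an alternative, 0.113 in limma without DNPT replicate 1. In that fit the groups lay on different slides, so group and slide cannot be told apart. Within slide 1 the change of Mrpl30 was 0.065.

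In the small subunit, Mrps7 and Mrps11, whose bacterial counterparts line the path of the messenger RNA near its exit, were at 3.18, 3.38 and 3.37 and 1.42, 1.60 and 1.62 in vehicle rats. In DNPT rats they were at 3.37, 3.46 and 3.61 and 1.78, 1.64 and 1.82. DNPT and vehicle rats overlapped for Mrps7 and not for Mrps11, and the changes were 0.17 (SE 0.10) and 0.20 (SE 0.099). Mrps5, whose counterpart stands at the entry of the messenger RNA, had -0.13, -0.14 and -0.23 in vehicle and -0.12, -0.21 and -0.13 in DNPT rats, a change of 0.013 (SE 0.079) with overlap. Mrps14 and Mrps17, also conserved from bacteria, had overlapping groups and changes of 0.15 (SE 0.10) and 0.061 (SE 0.087). Dimmer probes of Mrps14 gave -0.18 (SE 0.15) and 0.00082 (SE 0.087), and the mean over its probes gave -0.0096. The other probe of Mrps17 gave 0.12 (SE 0.079). Among mitochondria-specific proteins, Mrps26 was at 4.18, 4.29 and 4.42 in vehicle and 4.59, 4.44 and 4.49 in DNPT rats, with a change of 0.21 (SE 0.098) and no overlap. Mrps31 was at 3.30, 3.41 and 3.37 and 3.35, 3.64 and 3.69, where DNPT replicate 1 lay within the vehicle range and the replicates of slide 2 above it. Mrps22 had 0.22, 0.27 and 0.26 in vehicle and 0.34, 0.27 and 0.33 in DNPT rats and a difference of 0.062 (SE 0.074).

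Probes for the same gene did not always give the same sign. All 67 genes were well above background on all 6 arrays with the probe that stands for them, and all but 1 of the 114 probes were tested. Of those tested, 93 had a positive change and 20 a negative one. Of 34 genes with several tested probes, 24 had changes of 1 sign and 10 had both signs. Since most tested probes were positive, probes of unrelated genes would often share a sign too. The count of 24 is therefore not read as agreement between probes. Mrps2 disagreed most among these with an unadjusted p under 0.05 on a probe. Its brightest probe gave 0.085 (SE 0.086), its second -0.079 (SE 0.095) and its dimmest -1.05 (SE 0.34), the last with signals of -2.37, -2.13 and -3.41 in vehicle rats and -3.56, -3.74 and -3.76 in DNPT rats. On that dim probe vehicle replicate 3 lay close to the DNPT rats and far from the other vehicle rats. For Mrpl40, the brightest probe gave 0.15 (SE 0.084) and the dimmest of 4 probes 0.30 (SE 0.095), while the probe that differed in sign gave -0.0031 (SE 0.078). RefSeq lists pseudogenes for 21 of the 67 genes, and which copies a probe detects was not tested.

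A few genes varied widely between rats of 1 group; these were chosen after their values were seen. Mrpl18 had the largest spread within groups, with 3.95, 2.80 and 2.83 in vehicle rats and 3.50, 2.75 and 3.67 in DNPT rats. Vehicle replicate 1 and DNPT replicates 1 and 3 were high and the other 3 rats low, while its second probe stayed between 2.96 and 3.23. Mrpl52 was at 1.45, 2.04 and 0.61 in vehicle and 1.51, 1.85 and 2.05 in DNPT rats. Vehicle replicate 3 was the lowest on both of its probes, and the change, 0.44 (SE 0.37), was smaller than the spread of the vehicle rats, 0.72 (SD, n = 3). Mrpl1, with the largest change of all members at 0.54 (SE 0.27, adjusted p = 0.451), was at 2.09, 1.24 and 2.14 in vehicle rats and 2.15, 2.44 and 2.50 in DNPT rats. Its groups did not overlap, vehicle replicate 2 was far below the other rats, and without that rat the change was 0.25. The median SD within groups over the 67 genes was 0.083.

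**Figure D4:**
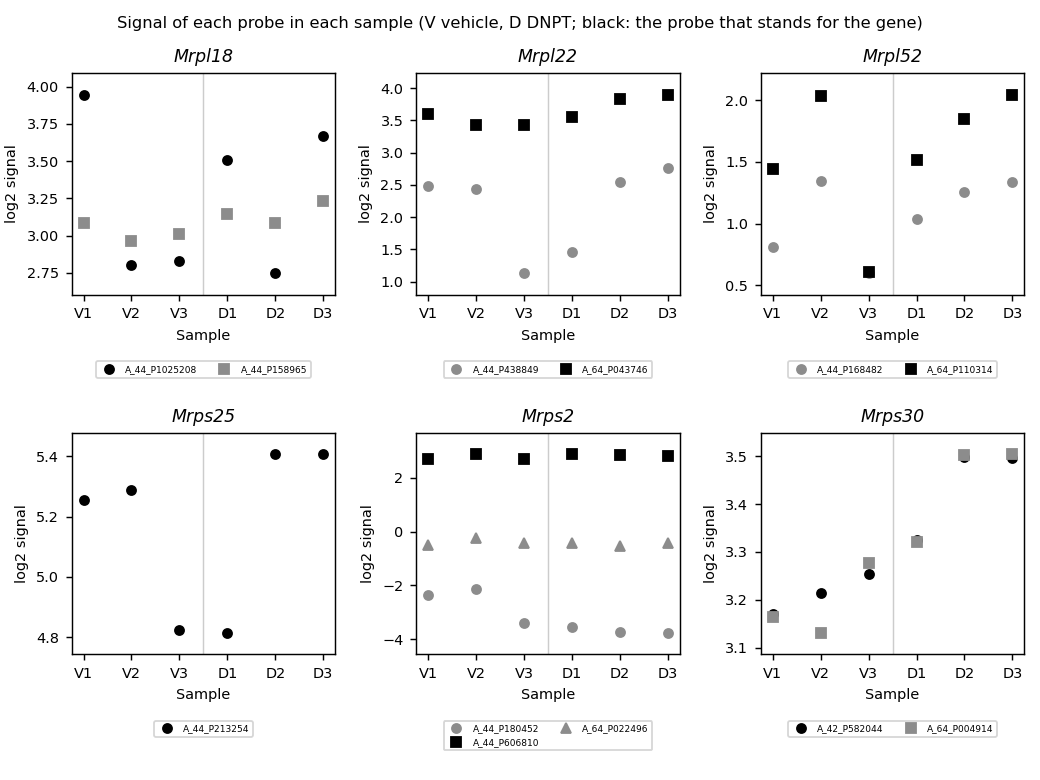
Log2 signal relative to the 75th percentile of the array (y axis) of each probe for 6 genes in each sample (x axis, vehicle left and DNPT right of the line); black points are the probe that stands for the gene. The probes of Mrps30 and of Mrpl52 follow each other, while those of Mrpl18, Mrpl22 and Mrps2 do not.

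Promoters of members that leaned in the same direction, and of the lowest member, are shown because nuclear genes for mitochondrial proteins are known to carry sites for the factors NRF1, GABPA (an ETS factor) and YY1. The windows, from RefSeq on GRCr8, run from 250 bases before to 50 bases after the gene's start and were given for 55 of the 67 genes. Capitals mark matches on either strand to a 10-letter NRF1 palindrome or its form with any letter at 1 middle position, CCGGAAG or CCGGAAGT (ETS), AAGATGGC (YY1) and CACGTG (E-box, bound by MYC).
Mrps18c (chr14:9122857-9123156, minus strand): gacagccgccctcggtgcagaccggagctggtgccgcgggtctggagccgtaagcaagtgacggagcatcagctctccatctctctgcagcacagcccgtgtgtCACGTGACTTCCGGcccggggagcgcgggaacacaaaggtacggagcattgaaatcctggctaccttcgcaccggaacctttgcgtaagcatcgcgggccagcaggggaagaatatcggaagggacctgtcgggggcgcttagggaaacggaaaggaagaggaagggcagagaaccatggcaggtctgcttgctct
Mrpl53 (chr4:117172793-117173092, plus strand): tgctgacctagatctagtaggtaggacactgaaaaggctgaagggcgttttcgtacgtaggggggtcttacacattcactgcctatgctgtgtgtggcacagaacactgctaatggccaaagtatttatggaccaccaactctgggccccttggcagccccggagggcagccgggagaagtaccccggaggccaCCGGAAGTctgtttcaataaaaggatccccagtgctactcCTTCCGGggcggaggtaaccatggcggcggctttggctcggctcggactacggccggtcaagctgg
Mrps30 (chr2:52195855-52196154, minus strand): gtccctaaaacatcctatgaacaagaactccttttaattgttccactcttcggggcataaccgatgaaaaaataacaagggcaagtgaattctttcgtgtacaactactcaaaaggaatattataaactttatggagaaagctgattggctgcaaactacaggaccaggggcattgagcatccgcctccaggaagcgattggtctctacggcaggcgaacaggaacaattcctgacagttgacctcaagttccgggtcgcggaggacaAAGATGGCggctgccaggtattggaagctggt
Mrps18b (chr20:2842756-2843055, plus strand): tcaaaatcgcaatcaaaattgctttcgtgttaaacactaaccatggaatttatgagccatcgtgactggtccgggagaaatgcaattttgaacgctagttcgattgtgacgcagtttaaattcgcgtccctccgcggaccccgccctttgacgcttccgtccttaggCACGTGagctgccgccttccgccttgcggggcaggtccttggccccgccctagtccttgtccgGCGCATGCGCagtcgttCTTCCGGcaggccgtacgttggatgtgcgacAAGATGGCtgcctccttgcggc
The Mrps18c window holds an E-box directly before an ETS match, Mrpl53 holds ETS matches on both strands, and Mrps30 holds a YY1 match 19 to 26 bases after the start. Mrps18b, the member with the lowest change, holds all 4 motifs, among them the exact NRF1 palindrome from 20 to 11 bases before the start.

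Over all windows, the ETS motif CCGGAAG was found in 19 of 55 members (34.5%) and in 11.6% of all 19005 genes with a window of this length. The longer form CCGGAAGT, which contains the shorter one, was in 8 of 55 members (14.5%) and in 5.12% of all genes, and AAGATGGC in 13 of 55 members (23.6%) and in 4.08% of all genes. The looser NRF1 form was in 9 of 55 members (16.4%) and in 6.20% of all genes, its special case, the exact palindrome, in 4 members and 1.16% of all genes, and CACGTG in 6 members (10.9%) and 7.69%. The 19 members with CCGGAAG had a median change of 0.16 and the 36 without it 0.12. The 13 with AAGATGGC had 0.11 and the 42 without it 0.13. With and without CCGGAAGT the medians were 0.18 and 0.11, and for CACGTG they were 0.075 and 0.12. For the looser NRF1 form they were 0.13 and 0.12, and for the exact palindrome 0.11 and 0.13. Differences between these medians were not tested. A match is a run of letters in this window and no evidence of binding in these kidneys.

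The other genes of mitochondrial translation were compared with the members from lists by function, and 0 of their genes passed in either direction in limma over all features. Counts at an unadjusted p under 0.05 are given beside each list. Over all features, 5.95% lay on the higher and 6.16% on the lower side at that p. Of the ribosomal proteins with other symbols, 4 of 5 had a positive change (median 0.19), with 1 at that p on the higher and 0 on the lower side. Among them Ptcd3, an RNA-binding protein of the small subunit, was at 5.66, 5.47 and 5.47 in vehicle rats and 6.26, 6.05 and 5.99 in DNPT rats, without overlap. Its change, 0.57 (SE 0.11, adjusted p = 0.294), was larger than that of any of the 67 members. Aurkaip1, another small subunit protein, had a change of 0.19 (SE 0.078, adjusted p = 0.417).

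Assembly factors and enzymes that modify ribosomal RNA had 21 positive changes among 24 genes tested, with a median of 0.11 and 5 genes at that p on the higher and 1 on the lower side. Eral1, a chaperone of the small subunit's RNA, was at -0.20, -0.094 and -0.087 in vehicle and -0.37, -0.53 and -0.37 in DNPT rats. It had the smallest p of this list and a negative change, -0.30 (SE 0.087, adjusted p = 0.375), opposite to most ribosomal proteins. Gtpbp10, a GTPase of large subunit assembly, was at 1.64, 1.59 and 1.55 in vehicle and 1.79, 1.88 and 1.92 in DNPT rats, with a change of 0.27 (SE 0.081, adjusted p = 0.379). Translation and release factors had 8 of 14 positive changes and a median of 0.033, which was -0.0087 with normexp and quantile normalization and -0.010 within slide 1. Genes at that p numbered 0 in both directions, with ribosome recycling factor Gfm2 at -0.20 (SE 0.095, adjusted p = 0.44) and Oxa1l, which inserts the new chains into the membrane, at 0.14 (SE 0.074, adjusted p = 0.475). Aminoacyl-tRNA synthetases had 14 of 16 positive and a median of 0.13, 2 of them at that p on the higher side, with Cars2 at 0.19 (SE 0.073, adjusted p = 0.408).

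Genes that make and regulate mitochondrial RNA gave small medians. Transcription and RNA processing genes had 11 of 13 positive changes (median 0.10), 0 at that p, with Fastkd3 at 0.20 (SE 0.083, adjusted p = 0.417) and the RNA polymerase Polrmt at 0.19 (SE 0.10, adjusted p = 0.476). Of 9 regulators of nuclear genes for mitochondria, 7 were positive (median 0.078), with 1 at that p on each side. Pprc1, a coactivator related to the PGC family, was at -0.64, -0.67 and -0.45 in vehicle and -0.17, -0.27 and -0.37 in DNPT rats, a change of 0.31 (SE 0.10, adjusted p = 0.393). Myc went the other way, with -0.70, -0.89 and -0.55 against -1.19, -0.96 and -1.10 and a change of -0.37 (SE 0.12, adjusted p = 0.393); neither gene's groups overlapped.

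Respiratory chain genes and cytosolic ribosomal protein genes had mostly positive changes too. Subunits of the respiratory chain and ATP synthase had 67 of 76 positive changes, a median of 0.13 and 35 genes (46.1%) higher without overlap. At that p there were 10 on the higher and 1 on the lower side. Ndufa5, a complex I subunit, had the smallest p of this list with a change of 0.26 (SE 0.083, adjusted p = 0.386), followed by Ndufv2, also of complex I, at 0.25 (SE 0.080, adjusted p = 0.389). Cytosolic ribosomal proteins had 77 of 81 positive, a median of 0.18, 39 higher without overlap and 12 at that p on the higher side, with Rps27 at 0.30 (SE 0.090, adjusted p = 0.383) and Rpl8 at 0.30 (SE 0.095, adjusted p = 0.385). Both lists are brighter than the members, with a median signal of 6.25 and 6.65 against 3.30. In the brightest band of all features, 69.8% had a positive change and 22.9% were higher without overlap. The share of that band at an unadjusted p under 0.05 on the higher side was 9.28%. With quantile normalization the medians were 0.019 for the respiratory chain and 0.056 for cytosolic ribosomal proteins, beside 0.059 for the members. All lists were measured in the same 6 samples, so their shifts are not independent of each other.

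**Figure D5:**
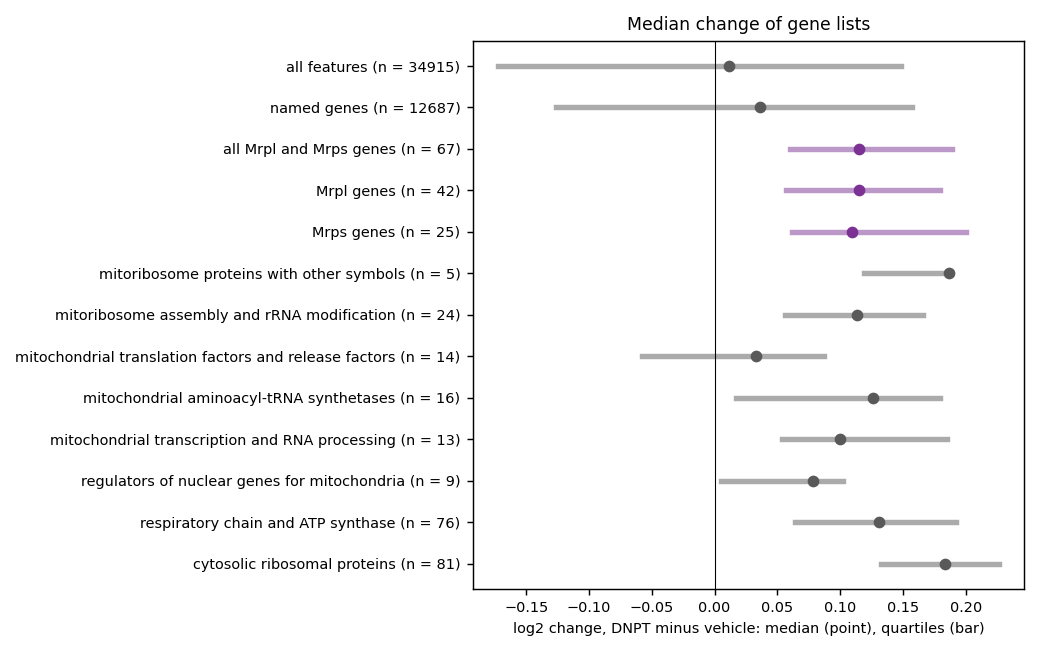
Median log2 change, DNPT minus vehicle (points, x axis), and quartiles over genes (bars) of all features, named genes, the members (purple) and the other lists (grey), with the number of genes tested. The members' median of 0.11 lies between those of the translation factors (0.033) and the cytosolic ribosomal proteins (0.18).

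Marker lists of other cells also differed between the groups. In bulk tissue, fewer cells of a type and less RNA per cell cannot be told apart. The 4 red cell markers had a mean signal of 3.46 to 3.85 in vehicle and 4.06 to 4.27 in DNPT rats, and the 3 intercalated cell markers 4.495 to 4.976 and 4.996 to 5.129. Endothelial markers had 3.98 to 4.09 in vehicle and 4.10 to 4.35 in DNPT rats. The mean over the 4 lymphocyte markers, 3 of them with a negative change, was lower in DNPT rats, with -3.71 to -3.48 in vehicle and -4.37 to -3.75 in DNPT rats. So was the mean over the 3 skeletal muscle markers, 2 of them with a negative change (-4.31 to -3.74 and -4.51 to -4.42). The muscle means lay in the signal range of the dimmest band of all features, whose upper edge was -3.68 and median change -0.094. The lymphocyte means lay near or below that edge. Acta1, a muscle marker, was higher in DNPT replicate 1 (-2.48) than in the vehicle rats (-2.78, -2.87 and -2.90). Apart from these and the proximal tubule markers, the ranges of the marker lists overlapped between the groups. The part of the cell composition in the shift of the ribosomal protein genes was not tested.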

How the data were processed

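The scans were read by Agilent Feature Extraction 10.7 (submitters' processing notes). Per the file headers, each deposited scanner file gives flags and, as a linear intensity, the background-corrected processed signal of each spot. In the deposited value table each entry is the ratio of that signal to a constant of the array (100% of values within 0.5% of a single factor), and how that constant was set is not stated.

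Control spots and 113 outlier values were left out and saturated spots kept. Signals were taken as log2 minus the 75th percentile of the array. A probe was tested if well above background on at least 3 of 6 arrays with at least 2 values per group. Accessions were matched without versions to RefSeq genes of GRCr8, so that 28206 of 61537 probes named 1 gene, and symbols came from this match alone. A gene stands for its tested probe with the highest mean signal, which gave 44305 probes and 34915 features. RefSeq lists 78 protein-coding genes under the rule, of which 67 had a probe.

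The test was limma 3.58.1 (lmFit, eBayes; R 4.3.3), two-sided and with no covariate. It was first tested on simulated data. The changes planted there were larger in size than that of any member, so recovery of smaller ones was not tested. The p-values were adjusted by Benjamini-Hochberg across every feature, at 0.05. An exact permutation test of 3 against 3 cannot go below 0.1. The labels call the rats biological replicates. Lists are given by counts and medians, without a test.

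Named members are those of smallest p in each subunit and direction (4 each, where there were so many), a set chosen by role, and genes whose probes disagreed in sign with an unadjusted p under 0.05; of other lists the 2 with the smallest p, of which 1 is not reported here. Other names were chosen after their values were seen. The members and lists were chosen with earlier results of these data known. Alternatives were quantile normalization, median scaling, normexp (offset 50, on median in place of mean signals) with quantile normalization, the value table, other filters, the mean over probes, an intensity trend, array weights, a block for the replicate number or for the slide, a fit within slide 1, and each sample left out. Python 3.11.15, pandas 2.3.3 and matplotlib 3.10.9 made tables and plots.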

Additional observations from a re-analysis of the deposited data

How the results depend on the processing

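No member passed adjustment in any of the 18 alternatives, where the smallest adjusted p of a member was 0.113 in limma; 36 of 67 genes kept a positive and 3 a negative change in all of them. The alternatives reuse the same arrays, and the share of all features that kept 1 sign is not given here. The median change of the members was 0.059 with quantile normalization and 0.051 with normexp. In each of these settings 12 members were without overlap, against 9.74% and 10.2% of all features. With each sample left out the median was 0.096 to 0.14, and 55 to 58 changes were positive. In those fits 27 to 37 members were without overlap (15.3% to 21.96% of all features). The number at an unadjusted p under 0.05 on the higher side was 1 with quantile normalization, 2 with normexp, 2 without a filter on dim probes, 15 with an intensity trend, 10 with array weights, 0 with a block for the slide, 0 within slide 1, and 0 to 11 with each sample left out (0 to 1 on the lower side). The shares of all features in the settings before the last were 5.16%, 6.21%, 13.1%, 7.30%, 8.15%, 3.17% and 3.397%. The replicate numbers mark no shared animal, and same-numbered samples did not deviate together (correlations of -0.18, -0.06 and -0.18); with the number as a replicate block 0 members reached that p, against 3.82% of all features. The Mrpl median minus the Mrps median was -0.040 with normexp, -0.024 with the mean over probes and -0.038 to 0.027 with each sample left out. The other lists had 0 to 1 passing genes with each sample left out; the 1 was Cox7c, without DNPT replicate 1, where 623 of all 34915 features passed (3 without vehicle replicate 2, 5 with normexp and 1 with a block for the slide). Small changes switched sign: Mrpl10 was at 0.0036 with median scaling, 0.0047 with slide as a block or slide 1 alone and -0.13 to 0.059 with each sample left out; Mrps15 at 0.039 with normexp, 0.049 within slide 1 and -0.063 to 0.022 with each sample left out; Mrpl12 at -0.0046 with normexp; Mrpl44 at -0.0026 and Mrps18a at -0.040 within slide 1; and, with the mean over probes, Mrpl58 at 0.013, Mrps2 at -0.35 and Mrps27 at 0.27. The cause was not tested. Values within a slide rest on the single DNPT array of slide 1, which is assumed to vary like the others. Without DNPT replicate 1 the groups lay on different slides, so group and slide cannot be told apart in that fit.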

Other observations

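A few probes for members were low in the same pair of samples, vehicle replicate 3 and DNPT replicate 1. Mrps25, a small subunit protein, was at 5.25, 5.29 and 4.83 in vehicle rats and 4.82, 5.41 and 5.41 in DNPT rats. The dimmer probe of Mrpl22, a protein of the exit tunnel, was at 2.49, 2.43 and 1.13 in vehicle and 1.45, 2.54 and 2.77 in DNPT rats, while its brighter probe was at 3.60, 3.44 and 3.43 in vehicle and 3.56, 3.84 and 3.90 in DNPT rats. A probe of Mrpl41 was at 3.64, 3.65 and 3.29 in vehicle and 3.37, 3.82 and 3.96 in DNPT rats. Over all features, the deviations of these samples from their group means correlated at 0.33, the highest of the pairs across groups. Mrpl41 and Mrpl22 have other probes that do not show the dip, and these probes were picked after their values were seen.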
